A study of Homo sapiens with 12 samples.

Results

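The 3 siRNA knockdowns of the splicing factors RBM17, U2SURP and CHERP were averaged, with equal weight per knockdown, and compared with control siRNA. All 12 of the 12 libraries entered, in 4 groups of 3. The cells were HEK293 by source label and HEK293T by cell line label, at passage 10. HEK293 is a human embryonic kidney line, and HEK293T descends from it and expresses large T antigen of SV40. The RBM17, U2SURP and CHERP groups each received an ON-TARGETplus SMARTpool against the named gene, and the control group received ON-TARGET plus Non-targeting siRNA #3, for which the label names no pool. Genes were chosen by how far the 3 knockdowns agreed, over all 29003 genes with enough counts to test.

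RBM17, U2SURP and CHERP are nuclear RNA-binding proteins that associate with the U2 small nuclear ribonucleoprotein, the particle that pairs with the branch site of an intron and commits it to splicing. Loss of a splicing factor can alter an RNA directly, by retained introns or skipped exons that expose it to nonsense-mediated decay, and can alter other genes through the proteins that are then made or missing. Gene-level counts, as used here, sum over all isoforms of a gene and do not show splicing itself.

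Libraries held 252505520 to 320986785 counts. Expression is given as CPM, counts scaled to library size, and a difference as the log2 fold change ± SE of the averaged knockdowns against control from an edgeR quasi-likelihood fit over all 4 groups. A gene was called at a Benjamini-Hochberg adjusted p under 0.05 over all tested genes. Whether the 3 libraries of a group are separate cultures is not stated in the labels, so the error behind each p-value is that between libraries and may be technical. Library numbers in the labels run in blocks by group, so preparation order and group cannot be told apart. Each siRNA pool lowered its target, from 112 to 118 CPM in control down to 26.0 to 27.0 CPM for RBM17, from 434 to 499 down to 138 to 149 CPM for U2SURP, and from 60.1 to 62.1 down to 17.2 to 18.8 CPM for CHERP. Their averaged log2 fold changes, -0.65 for RBM17, -0.45 for U2SURP and -0.51 for CHERP, therefore mix 1 depleted group with 2 in which the gene was near or above control.

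The averaged knockdowns differed from control in 14864 genes, or 51.2% of those tested, with 6899 higher (23.8%) and 7965 lower (27.5%). Most of these estimates were under 2-fold, with a median log2 fold change of 0.35 among genes called higher and -0.51 among those called lower. A test against a minimum change of 2-fold called 30 genes higher and 89 lower, and a gene that it does not call may still have changed by more. The tally higher against lower turned with the scaling, to 7569 higher and 7266 lower under DESeq2 size factors, which moved the median over all genes from -0.046 to -0.011. Protein-coding genes were more often higher (5590 of 16291) than lower (4802), whereas long non-coding genes were more often lower (2000 of 6865) than higher (603). Long non-coding genes made up 2.45 to 3.22% of counts in the control libraries and 1.63 to 2.36% in the knockdown libraries, so the ranges did not overlap.

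Agreement was narrower than the average. A gene counted as agreeing when it was called in the average and, in the same direction, in each of the 3 knockdowns, and 6095 genes (21.0%) did so, 2964 higher (10.2%) and 3131 lower (10.8%). Singly, RBM17 knockdown called 25.4% of tested genes higher and 29.3% lower, U2SURP knockdown 21.1% and 22.2%, and CHERP knockdown 22.8% and 24.6%. The 3 single contrasts share the control libraries, so their agreement is a description and not independent repetition. Another 5404 genes called in the average were called in 2 knockdowns, 2626 in 1, and 81 in none singly, while 658 carried an opposite call in at least 1 knockdown. Over all tested genes, 2246 (7.74%) were called higher in 1 knockdown and lower in another. An F test among the 3 knockdown groups, which uses no control library, called a difference in 17141 genes (59.1%), and among the 6095 agreeing genes in 3994. Within the agreeing genes that rose, the change was largest in RBM17 knockdown for 1802 (60.8%), in CHERP knockdown for 692 (23.3%) and in U2SURP knockdown for 470 (15.9%). Of those that fell, RBM17 knockdown had the largest change in 1342 (42.9%), CHERP knockdown in 1211 (38.7%) and U2SURP knockdown in 578 (18.5%).

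**Figure D1:**
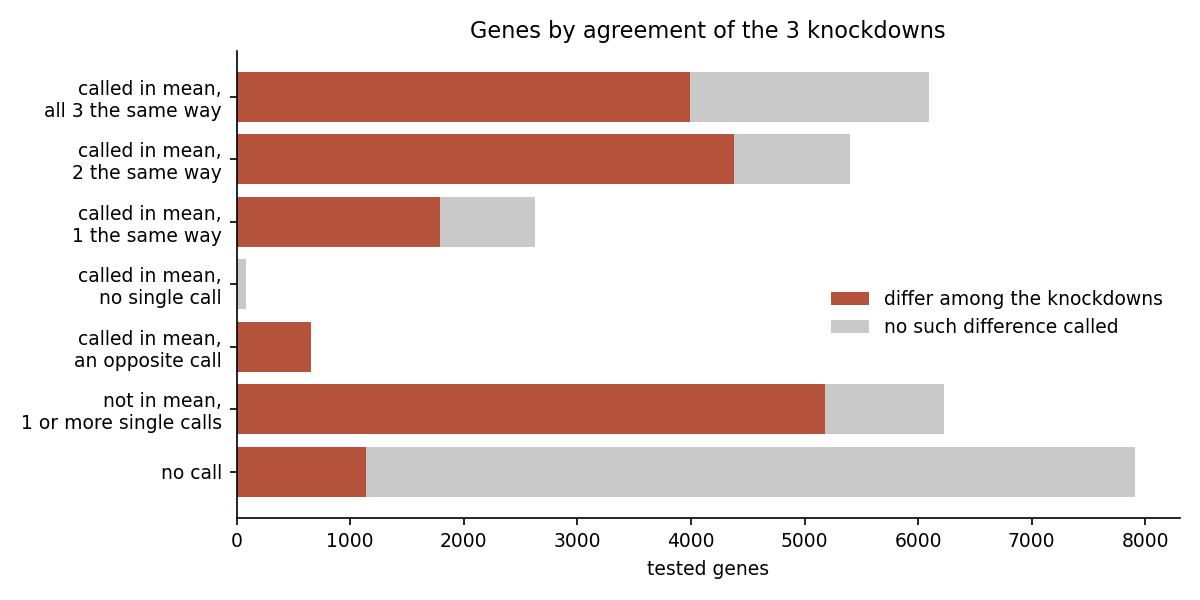
Bars count tested genes by how the average and the 3 single knockdowns were called, with the part that also differed among the knockdowns by F test in red. Of the 6095 genes called alike in all 3, 3994 differed in size among them.

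All 9 knockdown libraries lay above all 3 control libraries in 3258 genes (11.2%) and below in 3731 (12.9%). Among protein-coding genes that agreed in all 3 knockdowns, did not overlap between knockdown and control libraries and averaged at least 5 CPM, 2239 rose and 1417 fell. The 12 largest changes in each direction are described next, so a common direction and no overlap with control hold for each of them by choice. The last gene named among the increases had a log2 fold change of 1.02 and the next 0.96, and the last among the decreases -1.20 and the next -1.17.

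G0S2, an inhibitor of the triglyceride lipase ATGL (chromosome 1, 209675420 to 209676388, plus strand, GRCh38 throughout), rose most. Its control libraries read 9.65, 7.90 and 9.36 CPM, against 21.9, 18.0 and 17.3 in RBM17 knockdown, 39.3, 37.2 and 41.7 in U2SURP knockdown and 22.1, 25 and 17.3 in CHERP knockdown. Every knockdown library was higher than every control library, and U2SURP knockdown stood above the others (1.49 ± 0.11, adjusted p = 1.86e-07, 2.82-fold).

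TXNIP, an alpha-arrestin that restrains glucose uptake and binds thioredoxin (minus strand of chromosome 1, 145992435 to 145996600), was at 38.7, 39.5 and 43.5 CPM in control. It reached 100, 97.2 and 92.6 CPM in RBM17 knockdown, 124, 137 and 131 in U2SURP knockdown and 102, 109 and 88.0 in CHERP knockdown. The groups were far apart and the libraries within a group close (1.41 ± 0.059, adjusted p = 1.03e-14, 2.66-fold). Its paralog ARRDC3 (minus strand of chromosome 5, 91368724 to 91383359), an adaptor for receptor ubiquitination, rose by a like amount with a wider spread (1.39 ± 0.24, adjusted p = 0.00108), from 8.91, 10.6 and 11.3 CPM in control to 17.4, 26.9 and 25.1, to 21.5, 34.7 and 32.7 and to 20.1, 31.1 and 33.9 CPM in RBM17, U2SURP and CHERP knockdown. ARRDC3 was the only one of the 12 for which no difference among the knockdowns was called (adjusted p = 0.466).

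TXNIP is a textbook target of the glucose-sensing factors MondoA and ChREBP, which bind carbohydrate response elements made of paired E-box-like sequences, so the window of 250 bases before its start was read for the letters CACGNG, any 5 bases and CACGNG again, on both strands. A RefSeq window of TXNIP (GRCh38.p14, chr1:145996580-145996829, minus strand, printed in the direction of the gene) held them, shown in capitals.

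TXNIP: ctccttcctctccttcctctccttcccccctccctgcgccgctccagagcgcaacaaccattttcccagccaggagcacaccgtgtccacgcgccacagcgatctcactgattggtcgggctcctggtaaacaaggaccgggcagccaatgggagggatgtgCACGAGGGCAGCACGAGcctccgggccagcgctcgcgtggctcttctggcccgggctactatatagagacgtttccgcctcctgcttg

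These letters occurred in 16 of 27305 genes with a window (0.0586%) and in 14 of 13781 tested genes (0.102%). Of the 8 genes of the alpha-arrestin list with a window, 1 held them, and neither ARRDC3 nor ARRDC4 did. Among genes that agreed higher, 5 of 2142 with a window held them (TXNIP, GFPT1, HPF1, KCTD5 and STX12, 0.233%), and among genes that agreed lower 0 of 1730. A match in letters is a description of the window and was not tested as a binding site, and the motif was chosen after the values were seen. As TXNIP is a textbook target through such elements, its own match is background.

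DNAJA4, a cochaperone of HSP70 (chromosome 15, 78264086 to 78282196, plus strand), rose from 2.40, 2.19 and 2.07 CPM to between 4.79 and 7.43 CPM in the 9 knockdown libraries (1.43 ± 0.078, adjusted p = 1.01e-12). PKD1L1, a polycystin-family protein of left-right patterning (minus strand of chromosome 7, 47740202 to 47948491), rose from 4.62 to 5.55 CPM in control to 7.23 to 8.92 in RBM17 knockdown, 15.2 to 19.5 in U2SURP knockdown and 17.4 to 19.2 in CHERP knockdown (1.44 ± 0.081, adjusted p = 2.69e-12). TFAP2E, an AP-2 family transcription factor, had the same order, with log2 fold changes of 0.41, 1.59 and 1.71 in RBM17, U2SURP and CHERP knockdown. For both genes the RBM17 group sat between control and the other knockdowns.

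DHRS2, a mitochondrial short-chain dehydrogenase (chromosome 14, 23630115 to 23645639, plus strand), rose from 24.8 to 25.3 CPM to 35.9 to 109 CPM (1.38 ± 0.15, adjusted p = 4.39e-05). ODC1, the rate-limiting enzyme of polyamine synthesis (minus strand of chromosome 2, 10439968 to 10448504), rose from 126, 129 and 147 CPM to between 218 and 390 CPM (1.07 ± 0.12, adjusted p = 1.79e-05) and was highest in RBM17 knockdown. SLC43A2, a transporter of large neutral amino acids, rose by 1.16 ± 0.23 (adjusted p = 0.00238), from 6.46 to 6.68 CPM to 8.01 to 25.9 CPM. RGS5, a regulator of G-protein signalling, rose by 1.04 ± 0.065 (adjusted p = 1.01e-11). Of its 6821 exonic bases, 534 are shared with a second tested entry of the same name and strand, at 5.42 CPM, which is not described here. C7orf50 rose by 1.03 ± 0.11 and MRPL47, a protein of the large mitochondrial ribosomal subunit, by 1.02 ± 0.070, and 124 of the 1370 exonic bases of MRPL47 are shared with ACTL6A on the opposite strand.

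In 7 of these 12 genes (PKD1L1, ARRDC3, DHRS2, SLC43A2, ODC1, C7orf50 and MRPL47) library 1 was the lowest of its 3 libraries in every knockdown, which was so for 10.9% of all tested genes. Library 1 is the lowest library number of its group. Among the 12 largest decreases described next, library 1 was the highest in every knockdown for 4, against 8.53% of all tested genes. Without the first library of each knockdown, an alternative added after seeing the data, 7149 genes were called higher and 8120 lower, and all 12 increases and 12 decreases kept their calls. The part of library order in these values was not tested.

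ALDH8A1, an aldehyde dehydrogenase of retinal and kynurenine metabolism (minus strand of chromosome 6, 134917390 to 134950122), fell most. Control libraries were at 14.4, 13.4 and 11.3 CPM, RBM17 knockdown at 2.63, 2.11 and 2.86, U2SURP knockdown at 3.65, 3.01 and 3.22 and CHERP knockdown at 1.26, 1.37 and 1.31. The highest knockdown library was well under the lowest control library, and CHERP knockdown was lowest (-2.56 ± 0.078, adjusted p = 8.87e-17, 5.88-fold lower).

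The 12 decreases included genes of the immediate-early response, which are switched on within minutes of growth factor signalling. ARC, a synaptic capsid-like protein encoded by such a gene (minus strand of chromosome 8, 142611044 to 142614472), fell from 31.8, 29.7 and 29.5 CPM to 8.01, 4.36 and 5.07 in RBM17 knockdown, 15.6, 13.2 and 15.5 in U2SURP knockdown and 6.21, 7.30 and 7.89 in CHERP knockdown (-1.84 ± 0.15, adjusted p = 4.69e-06). FOSB, a subunit of the AP-1 transcription factor, fell by 1.38 ± 0.16 on the log2 scale (adjusted p = 2.24e-05), from 9.47 to 11.3 CPM to 2.08 to 6.35 CPM. GADD45B, a stress-induced regulator of MAP kinases, fell by 1.25 ± 0.13 (adjusted p = 1.66e-05), from 37.2 to 41.0 CPM to 10.6 to 31.4 CPM. In all 3 genes U2SURP knockdown had the smallest fall, and no knockdown library reached a control library. C11orf96 also fell least in U2SURP knockdown (-1.80 ± 0.17, adjusted p = 8.17e-06).

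RSRP1, an arginine- and serine-rich protein (minus strand of chromosome 1, 25242237 to 25338213), fell from 37.6, 39.2 and 39.2 CPM to 15, 11.6 and 10.9 in RBM17 knockdown, 16.9, 13.1 and 14.9 in U2SURP knockdown and 15.8, 14.1 and 15.2 in CHERP knockdown (-1.45 ± 0.077, adjusted p = 1.02e-10). It was the only one of the 12 largest decreases for which the F test among the knockdowns called no difference (adjusted p = 0.0505). In pairwise quasi-likelihood tests, RBM17 knockdown was lower than U2SURP knockdown (-0.26, adjusted p = 0.0474) and CHERP knockdown (-0.27, adjusted p = 0.037). U2SURP and CHERP knockdown were not called apart (-0.0067, adjusted p = 0.973). RSRP1 shares 297 of its 6804 exonic bases with TMEM50A on the opposite strand.

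GPR50, an orphan receptor related to the melatonin receptors (chromosome X, 151176653 to 151181465, plus strand), fell from 39.2 to 40.7 CPM to 17.7 to 22.9 CPM in RBM17 and U2SURP knockdown and to 7.72 to 8.97 CPM in CHERP knockdown (-1.42 ± 0.05, adjusted p = 5.86e-16). TNC, the matrix glycoprotein tenascin C (minus strand of chromosome 9, 115019578 to 115118257), had the same order of groups, from 31.6 to 35.7 CPM to 15 to 18.0 CPM and to 7.03 to 9.08 CPM (-1.33 ± 0.059, adjusted p = 3.27e-14). LGALS3BP, a secreted galectin-binding glycoprotein, fell from 90.9 to 99.7 CPM to 32.7 to 55.7 CPM (-1.20 ± 0.042, adjusted p = 5.86e-16). CHERP knockdown was lowest for all 3.

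ZCCHC12 fell by 1.31 ± 0.079 and FAM229A by 1.22 ± 0.072 on the log2 scale. DERL3, a factor of the degradation of misfolded proteins from the endoplasmic reticulum, fell by 1.21 ± 0.086, but 2923 of its 3796 exonic bases are shared with SMARCB1 on the opposite strand, a gene at 102 CPM. The strand setting of the counting is not given in the sources used here, so reads of DERL3 and SMARCB1 cannot be told apart. Of the 42 genes named for the size, range or opposition of their changes, 18 share exonic bases with another tested gene.

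**Figure D2:**
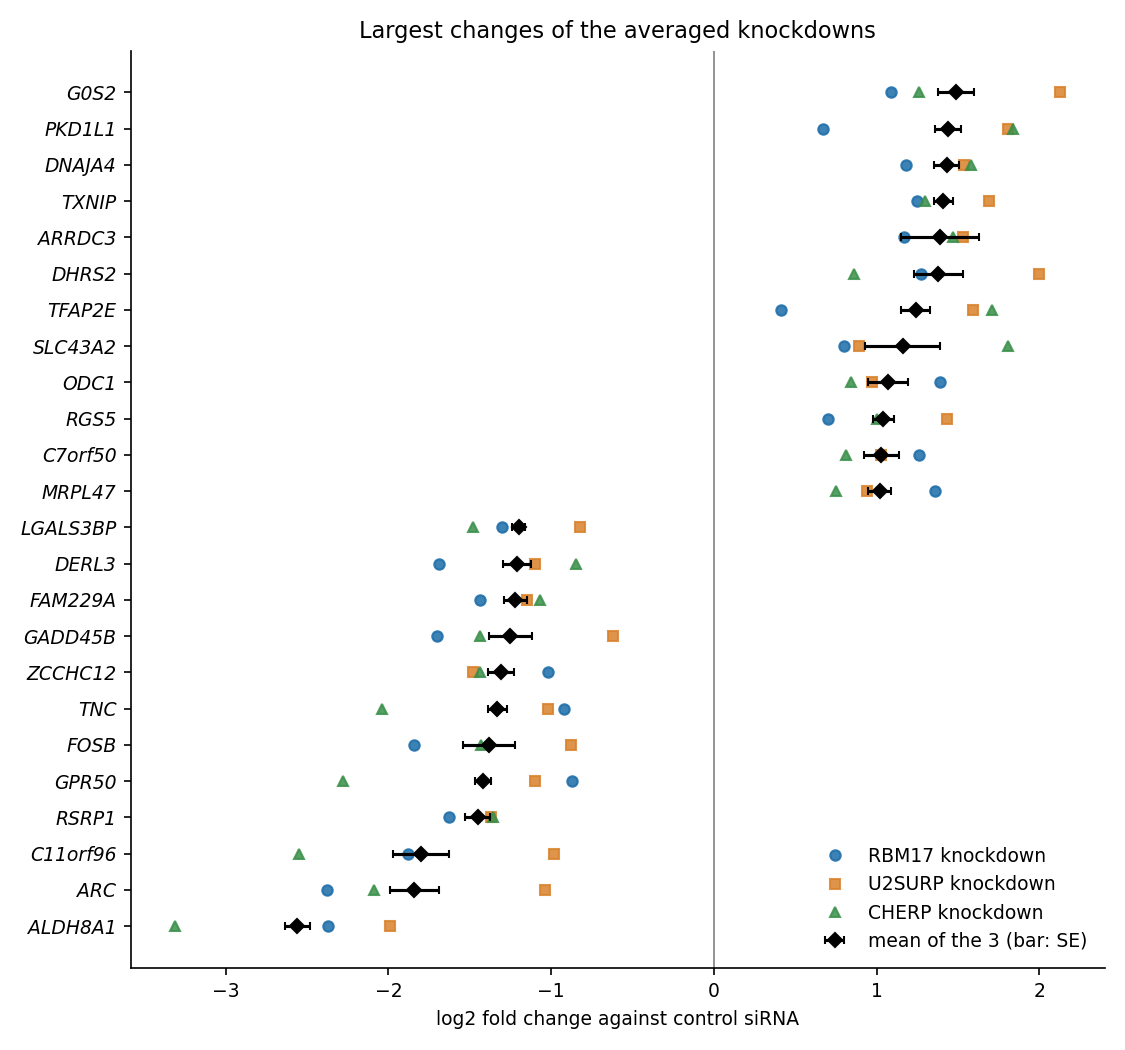
Log2 fold change against control siRNA (x axis) of the 12 largest increases and 12 largest decreases of the average. Black diamonds are the average with its SE, and coloured symbols the single knockdowns. All coloured symbols lie on the side of their diamond, which the choice of genes required, and they spread least for RSRP1, ARRDC3 and FAM229A.

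The largest change was not always in the same knockdown. Among the 12 increases it was in U2SURP knockdown for 5, CHERP knockdown for 4 and RBM17 knockdown for 3, and among the 12 decreases in RBM17 knockdown for 6, CHERP knockdown for 5 and U2SURP knockdown for 1. By F test, 11 of 12 in each direction differed among the knockdowns.

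Other genes changed by nearly the same amount in each knockdown. L3HYPDH, a dehydratase of trans-3-hydroxyproline (minus strand of chromosome 14, 59460363 to 59484430), was at 24.0, 22.7 and 23.6 CPM in control and at 11, 11.2 and 11.5, at 11.5, 10.9 and 11.9 and at 11.1, 11 and 11.4 CPM in RBM17, U2SURP and CHERP knockdown. All 9 knockdown libraries lay between 10.9 and 11.9 CPM (-1.06 ± 0.045, adjusted p = 1.43e-14). The differences between knockdowns were -0.026 (95% interval -0.15 to 0.095) for RBM17 against U2SURP, 0.01 (-0.11 to 0.13) for RBM17 against CHERP and 0.036 (-0.084 to 0.16) for U2SURP against CHERP, on the log2 scale.

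ERBB4, a receptor tyrosine kinase for neuregulins, fell by 0.78, 0.76 and 0.87 on the log2 scale in RBM17, U2SURP and CHERP knockdown. ADGRG6, an adhesion G-protein-coupled receptor of myelination, fell by 1.08, 1.00 and 1.15, and DHRS11, a cytosolic dehydrogenase, by 0.83, 0.82 and 0.94. No difference among knockdowns was called for these 4 genes (adjusted p = 0.846 for L3HYPDH, 0.389 for ERBB4, 0.312 for ADGRG6 and 0.275 for DHRS11). As these genes were chosen for a small range, neither these values nor the intervals of L3HYPDH test for an equal response.

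In the upward direction WARS, the cytosolic tryptophanyl-tRNA synthetase (minus strand of chromosome 14, 100333788 to 100376805), rose from 94.7, 92.6 and 97.7 CPM to between 167 and 194 CPM, with log2 fold changes of 1.02, 0.92 and 0.85. ZNF627 (0.86, 0.89 and 0.74), PPP1R3B, which targets a phosphatase to glycogen (0.90, 0.88 and 0.76), and TMEM79 (0.83, 0.68 and 0.93) had like ranges. TMEM79 shares 607 of its 3067 exonic bases with GLMP on the opposite strand, a gene at 19.6 CPM. WARS and TMEM79 still differed among the knockdowns (adjusted p = 0.0173 and 0.00816), by at most 0.17 and 0.25 log2 units. Over all agreeing genes, the 95% intervals of the 3 pairwise differences lay within 0.5 log2 units of 0 for 3209 of 6095.

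**Figure D3:**
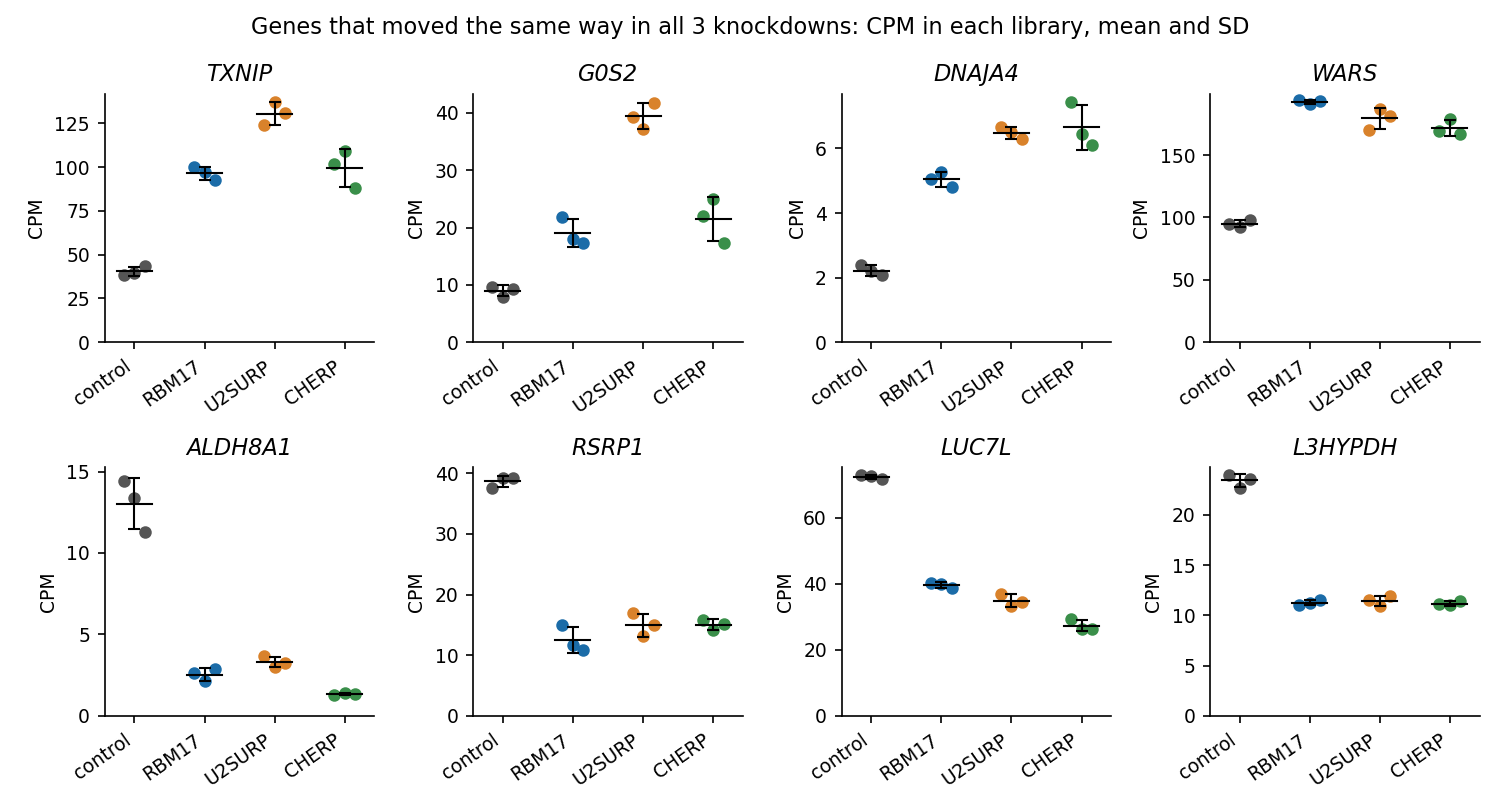
CPM in each library (dots) with the mean and SD of each group of 3 for 8 genes, 4 that rose and 4 that fell in all 3 knockdowns. In every panel the 9 knockdown dots lie on the same side of the 3 control dots, which the choice of genes required for all but LUC7L. For L3HYPDH, chosen for its small range, the knockdown groups coincide near 11 CPM.

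The average hid large opposite changes elsewhere. RPS6, a component of the 40S ribosome (minus strand of chromosome 9, 19375715 to 19380254), was at 1302, 1262 and 1494 CPM in control, fell to 145, 134 and 143 CPM in RBM17 knockdown and was at 1758, 1724 and 1835 in U2SURP knockdown and 1682, 1751 and 1876 in CHERP knockdown. The log2 fold changes were -3.26, 0.39 and 0.39, and the averaged value of -0.83 describes none of the groups. SYP, the synaptic vesicle protein synaptophysin, changed by 1.31, -0.31 and -1.40 in RBM17, U2SURP and CHERP knockdown and was not called in the average (-0.13 ± 0.057, adjusted p = 0.0539). CLSTN2, a calsyntenin of the postsynaptic membrane, changed by 0.49, -1.40 and -2.18, and NPTXR, a neuronal pentraxin receptor, by 0.77, -0.36 and -1.88. With the 9 knockdown libraries taken as 1 group, so that the spread between knockdowns entered the error, RPS6, CLSTN2 and NPTXR lost their calls, and the calls over all genes fell to 3394 higher and 3789 lower.

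Gene lists by role follow, each described by its members called in the average, its members called alike in all 3 knockdowns and its median log2 fold change, beside a median of -0.046 over all tested genes and 0.023 over protein-coding genes. Of all tested genes, 23.8% were called higher and 27.5% lower, and 10.2% and 10.8% agreed in all 3 knockdowns. The lists hold mostly protein-coding genes of high count, for which more were higher: 34.3% higher and 29.5% lower among all protein-coding genes, 41.1% and 31.2% among those of at least 1 CPM, and 52.3% and 26.2% in the group of highest CPM. The shares of members called higher among nonsense-mediated decay factors, factors of mitochondrial RNA and p53 targets lie near these values, and nothing particular to those lists is read from them. Of protein-coding genes of at least 1 CPM, 19.7% agreed higher and 14.2% lower, and in the group of highest CPM 29% and 13.1%. The shares agreeing higher among nuclear oxidative phosphorylation and cytosolic heat shock genes lie near 29%, and are not read as particular to those lists. Some members are named to show the spread within a list and were chosen after their values were seen.

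Messages for the core spliceosome were mostly higher. Of 14 genes for Sm and LSm proteins, the rings that bind spliceosomal RNAs, 13 rose and 0 fell (median 0.36), 10 of them in all 3 knockdowns. Of 40 genes for U1, U5, tri-snRNP and Prp19 proteins, 36 rose and 1 fell (median 0.34), and 27 rose in all 3. LSM4 rose from 81.8 to 94.5 CPM to 114 to 184 CPM (0.61 ± 0.051, adjusted p = 9.52e-10) and PPIL1, a spliceosomal prolyl isomerase, from 45.6 to 53.4 CPM to 62.1 to 97.0 CPM (0.66 ± 0.049, adjusted p = 1.21e-10). The exception was SNRNP70, the U1-70K protein, at 302 to 333 CPM in control and 271 to 307 CPM in the knockdowns (-0.15 ± 0.044, adjusted p = 0.00644), whose libraries overlapped and whose call was lost with offsets for GC content and length (-0.0097) and without control library 1 (-0.11).

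Of 24 genes for U2 snRNP and U2-associated proteins, the partners of the depleted factors, 17 rose and 3 fell (median 0.26), with 9 higher and 1 lower in all 3 knockdowns. SF3B2 (chromosome 11, 66050729 to 66069308, plus strand), a subunit of the SF3b complex that holds the branch site, rose from 336, 326 and 353 CPM to 489, 549 and 543, to 445, 482 and 469 and to 487, 509 and 508 CPM (0.55 ± 0.046, adjusted p = 8.13e-10). SF3A1 rose by 0.53 ± 0.045 (adjusted p = 1.35e-09). RBM5, a regulator of the 3′ splice site, fell from 282 to 301 CPM to 203 to 236 CPM in all 3 (-0.43 ± 0.039, adjusted p = 3.70e-09). U2AF1, the small subunit of the factor that reads the 3′ splice site, was called lower in the average (-0.96 ± 0.30, adjusted p = 0.027) but ranged from 4.18 to 13.3 CPM in the knockdowns against 8.38 to 12.3 CPM in control. Its call was lost without control library 1 (-0.93) or 3 (-0.83) and without the first library of each knockdown (-0.88), and GRCh38 holds a near-identical copy that can split its reads.

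Genes rich in arginine and serine repeats went the other way. Of 27 genes for LUC7-like and RS-rich proteins, 18 fell and 2 rose (median -0.29), and 14 fell in all 3 knockdowns. LUC7L (minus strand of chromosome 16, 188969 to 229463), a homolog of a yeast U1 snRNP protein that selects 5′ splice sites, fell from 72.8, 72.6 and 71.6 CPM to 40.2, 39.9 and 38.6 in RBM17 knockdown, 37.0, 33.3 and 34.4 in U2SURP knockdown and 29.2, 26.4 and 26.2 in CHERP knockdown (-1.11 ± 0.042, adjusted p = 2.15e-15). Its paralogs LUC7L2 (-0.58 ± 0.05) and LUC7L3 (-0.94 ± 0.043) fell in all 3 as well, LUC7L3 from 604 to 642 CPM to 297 to 358 CPM. PNISR, an RS protein of nuclear speckles, fell from 303 to 320 CPM to 140 to 174 CPM (-1.0 ± 0.041, adjusted p = 1.02e-14). The 2 members that rose were RSRC1 (0.37 ± 0.050) and NSRP1 (0.33 ± 0.050).

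Of 17 genes for SR proteins, which bind exonic enhancers, 9 fell and 6 rose (median -0.18), 5 falling and 0 rising in all 3 knockdowns. SRSF5 fell from 336 to 341 CPM to 182 to 229 CPM (-0.67 ± 0.041, adjusted p = 6.58e-12) and SRSF11 from 679 to 758 CPM to 447 to 637 CPM (-0.40 ± 0.050). TRA2B was at 143 to 174 CPM in control and 166 to 225 CPM in the knockdowns (0.26 ± 0.052, adjusted p = 0.000143), and its call did not hold with the 9 libraries as 1 group. Among 19 kinases that phosphorylate splicing factors, 7 fell and 4 rose (median -0.044). CLK1 fell from 106 to 117 CPM to 57.3 to 75.4 CPM (-0.77 ± 0.043, adjusted p = 1.93e-12), CLK4 by 0.51 ± 0.043 on the log2 scale and SRPK3 from 3.70 to 4.47 CPM to 0.627 to 1.96 CPM (-1.81 ± 0.086), whereas SRPK2 rose by 0.27 ± 0.040.

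Of 28 hnRNP genes, whose proteins coat nascent transcripts, 20 rose and 2 fell (median 0.25), 13 and 1 in all 3 knockdowns. HNRNPR rose from 182 to 217 CPM to 269 to 347 CPM (0.62 ± 0.048, adjusted p = 3.05e-10) and PTBP3 from 56.0 to 66.1 CPM to 90.0 to 124 CPM (0.71 ± 0.056), while HNRNPDL fell by 0.34 ± 0.050. Of 21 genes for nonsense-mediated decay and the exon junction complex, 12 rose and 2 fell (median 0.22). MAGOHB, of the exon junction core, rose from 21.1 to 25.3 CPM to 35.6 to 46.1 CPM (0.79 ± 0.060, adjusted p = 2.01e-10) and PNN, a peripheral factor, fell from 481 to 513 CPM to 359 to 463 CPM (-0.31 ± 0.041). Of 24 RNAs that host snoRNAs, 11 fell and 6 rose (median -0.064), but only 4 fell and 1 rose in all 3 knockdowns. The list's median was -0.37, -0.039 and -0.071 in RBM17, U2SURP and CHERP knockdown. By F test, 20 of the 24 differed among the knockdowns, so the averaged median does not describe a shared response. SNHG3 fell by 0.44 ± 0.051, with 242 exonic bases shared with RCC1, and SNHG11 rose by 0.33 ± 0.054.

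**Figure D4:**
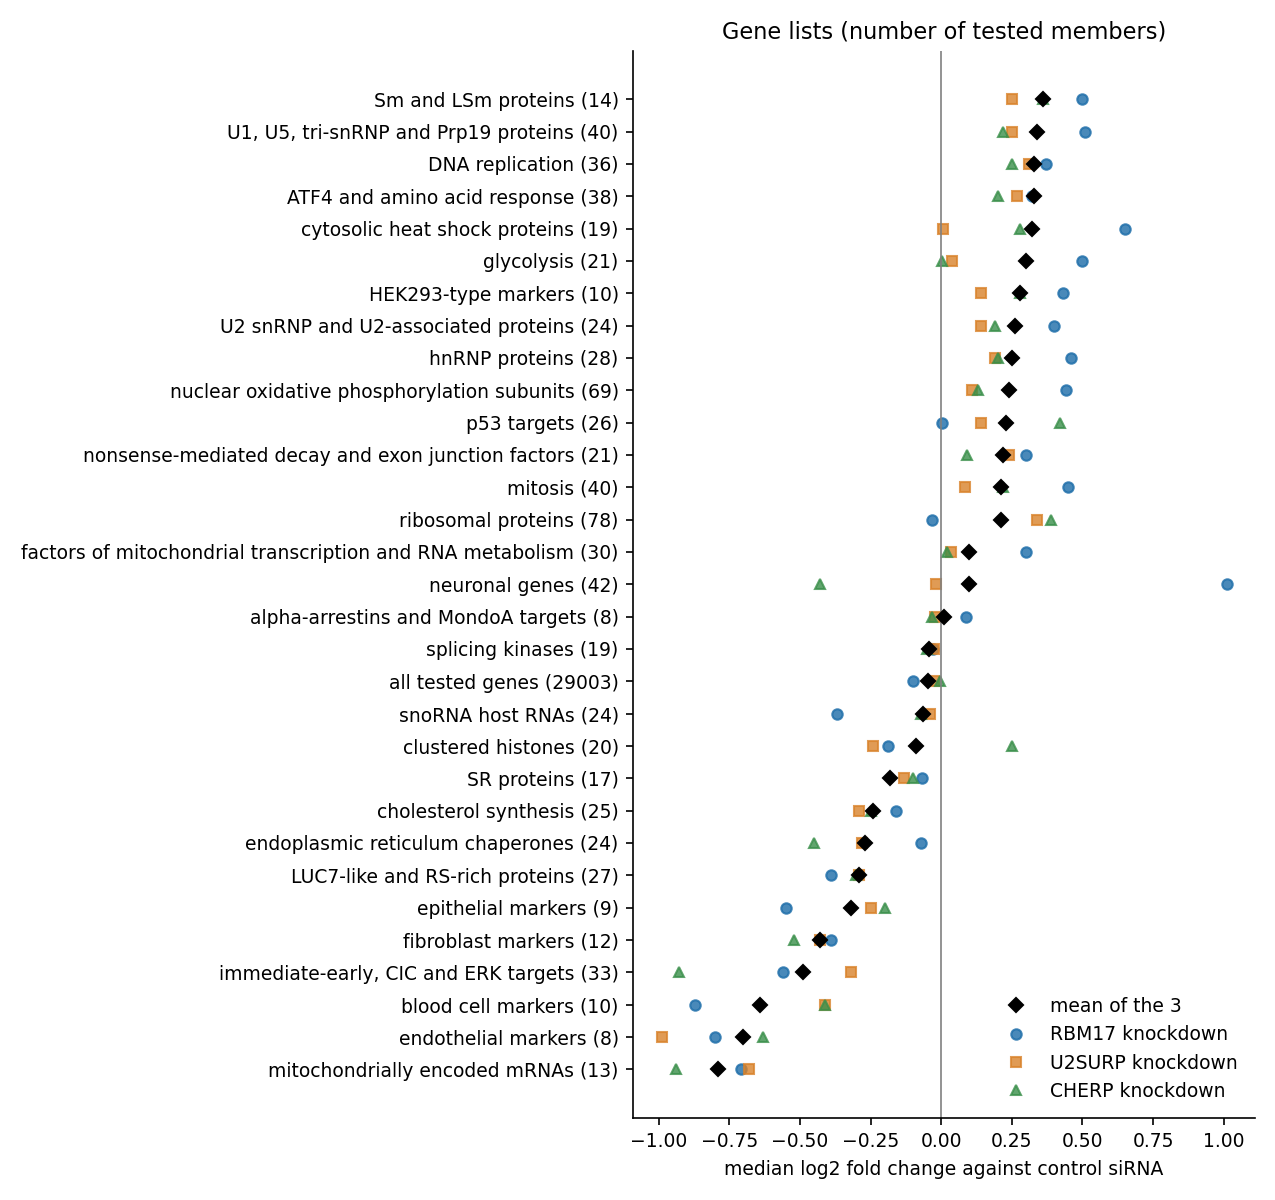
Median log2 fold change against control siRNA (x axis) of each gene list, with the number of tested members. Black diamonds are the average and coloured symbols the single knockdowns; mitochondrially encoded mRNAs lie lowest at -0.79, and neuronal genes spread most, from 1.01 to -0.43.

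RNAs encoded by mitochondrial DNA, which specify subunits of the respiratory chain, were lower in every knockdown library. All 13 mitochondrially encoded mRNAs fell in the average and in all 3 knockdowns, and for all 13 the libraries of knockdown and control did not overlap (median -0.79). MT-CYB of complex III (chromosome M, 14747 to 15887, plus strand) was at 4912, 4479 and 5425 CPM in control, 2381, 2499 and 2279 in RBM17 knockdown, 3156, 3187 and 3212 in U2SURP knockdown and 2417, 2097 and 1933 in CHERP knockdown (-0.96 ± 0.057, adjusted p = 4.42e-12). MT-CO1, of complex IV, fell from 18069 to 21192 CPM to 9032 to 12265 CPM (-0.83 ± 0.055), and MT-ND6, of complex I, from 1124 to 1259 CPM to 602 to 746 CPM (-0.80 ± 0.049). MT-ND6 is encoded on the minus strand, and with the strand setting unknown its reads cannot be told apart from plus-strand RNA over it.

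Summed over all mitochondrially encoded genes, the share of counts was 8.30% ± 0.41 (SD, n = 3) in control, 4.86% ± 0.195 in RBM17 knockdown, 5.06% ± 0.104 in U2SURP knockdown and 4.25% ± 0.325 in CHERP knockdown. The average of the 3 knockdowns was 3.57 percentage points lower, with p = 0.00455 by a two-sided exact permutation test over samples, the smallest value that its 220 arrangements allow. The arrangements moved single libraries, although these come in groups by siRNA. The p-value therefore does not measure the spread between siRNAs. Reads from nuclear copies of mitochondrial genes could not be told apart, and fewer mitochondrial transcripts per cell cannot be told apart from more of the other RNA.

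Nuclear genes for mitochondria did not follow. Of 69 nuclear genes for oxidative phosphorylation subunits, 45 rose and 6 fell (median 0.24), 21 and 0 in all 3 knockdowns. CYC1, cytochrome c1, rose from 106 to 120 CPM to 140 to 223 CPM (0.58 ± 0.046, adjusted p = 3.34e-10). COX6A1 changed by -0.034, -0.81 and -0.90 in RBM17, U2SURP and CHERP knockdown (adjusted p = 3.18e-09 among them), and its call did not hold with the 9 libraries as 1 group. Of 30 factors of mitochondrial transcription and RNA metabolism, 14 rose and 9 fell (median 0.099). HSD17B10, a subunit of mitochondrial RNase P, rose from 61.7 to 67.9 CPM to 82.6 to 152 CPM (0.69 ± 0.049), and FASTKD1, an RNA-binding protein of the mitochondrial matrix, fell from 57.9 to 61.2 CPM to 35.4 to 44.9 CPM (-0.59 ± 0.047).

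Of 78 genes for cytosolic ribosomal proteins, 59 rose and 2 fell (median 0.21), but only 9 rose and 1 fell in all 3 knockdowns. The list's median was -0.034 in RBM17 knockdown, 0.34 in U2SURP knockdown and 0.39 in CHERP knockdown, and 73 of 78 members differed among the knockdowns. RPSA rose in all 3, from 1595 to 1822 CPM to 2380 to 2927 CPM (0.62 ± 0.057), and RPL36A fell in all 3 (-0.33 ± 0.041). Ribosomal protein genes have many near-identical pseudogenes, so their counts are uncertain.

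Amino acid response genes under the transcription factor ATF4 were more often higher, 24 of 38 against 5 lower (median 0.33), with 13 higher and 3 lower in all 3 knockdowns. Among protein-coding genes in the group of highest CPM, 52.3% were higher and 29% agreed higher. The list's shares lie not far above these values and are not read as particular to it. Aminoacyl-tRNA synthetases and serine synthesis enzymes were among those that agreed: WARS is given above, SARS rose from 320 to 366 CPM to 504 to 640 CPM (0.71 ± 0.046, adjusted p = 1.88e-11), PHGDH, the entry enzyme of serine synthesis, from 483 to 537 CPM to 720 to 876 CPM (0.64 ± 0.044) and SHMT2, which makes mitochondrial glycine, from 282 to 309 CPM to 420 to 477 CPM (0.59 ± 0.046). Other members did not agree. NUPR1, a stress-induced chromatin protein, changed by -0.09, 1.96 and 1.93 in RBM17, U2SURP and CHERP knockdown and ATF5 by 0.08, 1.30 and 1.33. ATF5 shares 626 of its 2954 exonic bases with NUP62 on the opposite strand, a gene at 134 CPM. The message of ATF4 itself was not called in the average (-0.097 ± 0.049, adjusted p = 0.106), with 0.15, -0.62 and 0.18 in the single knockdowns. Amino acid transporters were among the falls, with SLC7A1, a carrier of cationic amino acids, at -0.48 ± 0.042 in the average but only -0.11 in RBM17 knockdown.

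Chaperones differed by compartment. Of 24 genes for chaperones and quality control factors of the endoplasmic reticulum, 19 fell and 2 rose (median -0.27), 7 falling and 0 rising in all 3 knockdowns. HSP90B1, the HSP90 of the endoplasmic reticulum (chromosome 12, 103930107 to 103953645, plus strand), fell from 1217, 1194 and 1380 CPM to 603, 702 and 673 in RBM17 knockdown, 773, 808 and 792 in U2SURP knockdown and 464, 500 and 533 in CHERP knockdown (-0.98 ± 0.051, adjusted p = 4.58e-13). HSPA5, the HSP70 of the endoplasmic reticulum also named BiP (minus strand of chromosome 9, 125234853 to 125241330), fell from 784 to 877 CPM to 486 to 767 CPM (-0.42 ± 0.043) and CALR, the lectin chaperone calreticulin (chromosome 19, 12938578 to 12944489, plus strand), by 0.51 ± 0.048 on the log2 scale, though its libraries overlapped and RBM17 knockdown alone was not called (-0.14, adjusted p = 0.0581). PDIA4, a disulfide isomerase, fell from 196 to 220 CPM to 106 to 176 CPM (-0.54 ± 0.039). The list's median was -0.073, -0.28 and -0.45 in RBM17, U2SURP and CHERP knockdown. The 2 rises, SEC61B (0.15 ± 0.048) and CANX (0.14 ± 0.054), did not hold without control library 1 or 2.

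Many of these genes are activated by ATF6 through the endoplasmic reticulum stress element, here CCAAT and CCACG with any 9 bases between them. Windows of 250 bases before the RefSeq start were searched on both strands. The 3 below are those of HSPA5, HSP90B1 and CALR, described above and with a match (RefSeq, GRCh38.p14). Each match is in capitals (CGTGG, 9 bases and ATTGG where the match is on the other strand). PDIA4, also described above, had no match, and the matching windows of CANX, which was called higher, are not printed. HSPA5 is at chr9:125241344-125241593 (minus strand), HSP90B1 at chr12:103930160-103930409 (plus strand) and CALR at chr19:12938359-12938608 (plus strand).

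HSPA5: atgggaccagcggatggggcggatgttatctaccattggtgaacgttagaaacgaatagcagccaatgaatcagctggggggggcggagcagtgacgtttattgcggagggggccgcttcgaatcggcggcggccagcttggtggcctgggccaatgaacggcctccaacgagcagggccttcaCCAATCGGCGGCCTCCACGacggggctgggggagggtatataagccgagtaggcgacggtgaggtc
HSP90B1: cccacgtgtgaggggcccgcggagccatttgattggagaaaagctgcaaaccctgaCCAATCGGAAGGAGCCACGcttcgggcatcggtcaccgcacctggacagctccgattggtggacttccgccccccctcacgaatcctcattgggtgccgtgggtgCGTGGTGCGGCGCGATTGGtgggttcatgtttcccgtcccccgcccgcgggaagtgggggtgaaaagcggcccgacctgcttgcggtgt
CALR: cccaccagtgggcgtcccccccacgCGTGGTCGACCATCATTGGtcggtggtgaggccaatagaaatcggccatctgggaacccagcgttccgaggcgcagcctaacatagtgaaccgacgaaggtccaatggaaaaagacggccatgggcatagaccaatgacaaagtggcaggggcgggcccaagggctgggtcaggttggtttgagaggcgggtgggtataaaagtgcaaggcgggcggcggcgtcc

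The element was in 7 of the 23 list members with a window (30.4%) and in 25 of 27305 genes overall (0.0916%). Besides these 3, it was in windows of CANX, PDIA6, CRELD2 and XBP1, of which CANX was called higher in the average (0.14 ± 0.054), PDIA6 and XBP1 lower (-0.36 and -0.16) and CRELD2 not called (-0.092). Of the 7 members with the element, 5 were thus called lower and 1 higher. Among tested genes 21 of 13781 held it (0.152%), among genes that agreed higher 1 of 2142 (0.0467%) and among genes that agreed lower 3 of 1730 (0.173%). The motif was chosen after the values were seen, and a match is not a tested site. Since many list members are known to be activated through this element, its high share in the list is background and not a result of these data.

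Cytosolic heat shock genes moved the other way, with 15 of 19 higher and 0 lower (median 0.32), 6 of them in all 3 knockdowns. STIP1, which links HSP70 to HSP90, rose from 217 to 237 CPM to 276 to 493 CPM (0.63 ± 0.049). The list's median was 0.65 in RBM17 knockdown, 0.0078 in U2SURP knockdown and 0.28 in CHERP knockdown, and 0.14 in the average of U2SURP and CHERP knockdown alone.

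Of 25 tested genes of cholesterol synthesis and its control, 17 fell and 4 rose (median -0.24), 9 falling and 1 rising in all 3 knockdowns. SQLE, squalene epoxidase, fell from 177 to 203 CPM to 98.2 to 145 CPM (-0.72 ± 0.043, adjusted p = 4.79e-12). PMVK, phosphomevalonate kinase, rose from 21.7 to 26.2 CPM to 34.1 to 40.8 CPM (0.63 ± 0.051). GGPS1, which makes geranylgeranyl diphosphate, rose by 0.26 ± 0.040 in the average.

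The alpha-arrestin and MondoA list had no common direction, with 3 of 8 higher and 3 lower (median 0.011). TXNIP, ARRDC3 and ARRDC4 (0.66 ± 0.075) rose in all 3 knockdowns, and ARRDC1 (-0.52 ± 0.066) and MLXIPL, the gene of ChREBP (-0.70 ± 0.063), fell in all 3. Of 21 glycolysis genes, 14 rose and 3 fell (median 0.30), but the median was 0.50, 0.038 and 0.0011 in RBM17, U2SURP and CHERP knockdown, and 0.043 without the RBM17 group. GAPDH was an exception with log2 fold changes of 0.41, 0.40 and 0.42. SLC2A1, the glucose transporter GLUT1, was lower in U2SURP and CHERP knockdown (-0.99 and -1.0) and at -0.10 in RBM17 knockdown, whereas SLC16A3, a lactate exporter, was at -0.15, 1.14 and 1.77, and 482 of its exonic bases are shared with CSNK1D, a gene at 142 CPM.

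Genes of DNA replication were mostly higher, 27 of 36 against 4 lower (median 0.33), with 18 higher and 2 lower in all 3 knockdowns. MCM2 of the replicative helicase rose from 315 to 344 CPM to 471 to 541 CPM (0.63 ± 0.047, adjusted p = 1.59e-10). ORC6 of the origin complex was lower in RBM17 and U2SURP knockdown (-0.84 and -0.35) and at -0.071 in CHERP knockdown. Of 40 genes of mitosis, 31 rose and 4 fell (median 0.21). CDC20, an activator of the anaphase-promoting complex, rose from 94.3 to 99.3 CPM to 113 to 185 CPM (0.54 ± 0.044), whereas MKI67, the Ki-67 proliferation marker, fell from 1093 to 1170 CPM to 713 to 837 CPM in all 3 (-0.55 ± 0.041, adjusted p = 1.83e-10). Of 26 p53 targets, 12 rose and 4 fell (median 0.23), 2 and 1 in all 3. TIGAR rose by 0.51 ± 0.062 and TNFRSF10B, a death receptor, fell by 0.30 ± 0.040.

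The list of immediate-early genes and targets of CIC and ERK, a kinase cascade that carries growth factor signals, had 25 of 33 lower and 2 higher (median -0.49), and 9 lower in all 3 knockdowns. EGR2, a zinc finger factor, fell from 2.91 to 3.17 CPM to 0.997 to 1.89 CPM (-1.13 ± 0.090, adjusted p = 4.03e-10). For EGR1 (-1.53 ± 0.20), FOS (-1.58 ± 0.24) and ETV5 (-1.28 ± 0.24), all 9 knockdown libraries were below the control libraries, yet U2SURP knockdown was not called on its own (-0.31, -0.86 and -0.32, adjusted p = 0.396, 0.0578 and 0.453). With the 9 libraries as 1 group, EGR1 (-1.23, adjusted p = 0.0818) and ETV5 (-1.1, adjusted p = 0.0668) lost their calls. The list's median was -0.56, -0.32 and -0.93 in RBM17, U2SURP and CHERP knockdown. CCND1 and ATF3 were called higher in the average (0.30 ± 0.042 and 0.19 ± 0.043) and lost theirs in the same way. DUSP4, a phosphatase of ERK, was at -0.072, -0.57 and -1.40.

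Clustered histone genes, whose messages mostly lack poly(A) tails, had 5 of 20 higher and 7 lower (median -0.091). Neuronal genes showed the widest split between knockdowns: their median was 1.01 in RBM17 knockdown, -0.017 in U2SURP knockdown and -0.43 in CHERP knockdown, and 0.098 in the average, with 15 of 42 higher and 9 lower. CHGA, a granin of secretory granules, was at 0.455 to 0.651 CPM in control and changed by 3.45, 0.097 and -0.94. Only 2 members rose and 4 fell in all 3 knockdowns. KIF5A, a kinesin of axonal transport, fell from 29.8 to 32.4 CPM to 17.6 to 22.9 CPM (-0.58 ± 0.049) and SCG5, a chaperone of neuroendocrine proteases, from 1.35 to 1.72 CPM to 0.381 to 0.741 CPM (-1.59 ± 0.14).

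Markers of HEK293-type cells were present in every group, with 7 of 10 higher and 3 lower and a summed level of 1055 to 1150 CPM in control and 1096 to 1468 CPM in the knockdowns. KRT8 rose from 34.8 to 37.6 CPM to 49.2 to 64.0 CPM (0.64 ± 0.050), sharing 525 exonic bases with KRT18, and NEFM changed by 0.21, -0.16 and -0.83 in the single knockdowns. Fibroblast markers summed to 279 to 299 CPM in control and 192 to 214 CPM in the knockdowns, with 7 of 12 tested members lower and 0 higher. COL1A1 fell by 0.62 ± 0.089, while DCN, POSTN and FAP were too low to test. Epithelial markers were lower in 4 of 9, at 52.9 to 58.5 CPM in control and 37.2 to 51.9 CPM in the knockdowns, and endothelial markers in 4 of 8, at 30.4 to 34.4 CPM and 23.0 to 30.2 CPM. Blood cell markers, with 4 of 10 lower and 1 higher, summed to 8.75 to 10.5 CPM and 7.06 to 11.8 CPM, PTPRC was too low to test, and 1 of 16 was at 0 in all libraries. Among protein-coding genes of at least 1 CPM, the group of lowest CPM had 40.1% lower and 24.7% higher. The shares called lower among epithelial, endothelial and blood cell markers, few and of low count, are thus not read as particular to those lists. In bulk RNA, fewer cells of a type and less RNA per cell cannot be told apart, and the part of other cell types in these values was not tested.

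Among long non-coding genes of at least 5 CPM, AC015813.1 (minus strand of chromosome 17, 57989039 to 57994850) fell most, from 73.0, 70.3 and 62.3 CPM to 8.75, 7.17 and 7.94 in RBM17 knockdown, 33.6, 30.6 and 33.3 in U2SURP knockdown and 17.6, 21.2 and 20.5 in CHERP knockdown (-1.99 ± 0.056, adjusted p = 8.87e-17). SLC9A3-AS1 fell nearly alike in the 3 knockdowns, by 2.11, 1.91 and 1.87 on the log2 scale, with 830 of its 4302 exonic bases shared with SLC9A3, and LINC02593 by 1.35, 1.45 and 1.69. In the other direction AC022150.4 rose from 3.10 to 3.37 CPM to 5.99 to 8.45 CPM (1.10 ± 0.065), LINC00467 from 7.24 to 8.63 CPM to 12.9 to 18.3 CPM (1.01 ± 0.071) and AL392172.1 from 2.66 to 3.51 CPM to 5.18 to 6.53 CPM (0.93 ± 0.081).

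The direction of change varied with gene composition. Among 12850 protein-coding genes of at least 1 CPM, 41.1% were higher and 31.2% lower in the average. In the group of lowest transcript GC content (30.24 to 41.92%), 49.7% were higher and 23.8% lower, and in the group of highest GC content (56.56 to 74.48%) 27.1% were higher and 42.6% lower. By exon number of the transcript with most exons, genes of 5 to 9 exons were more often higher (45.1%) than lower (27.1%), and genes of 20 or more exons slightly more often lower (38.3%) than higher (34.8%). Within the lower and the upper GC range alike, genes of 20 or more exons were higher less often than those of 5 to 9 exons, 43.0% against 52.1% and 25.6% against 37.6%. They were lower in 30.2% against 21.7% and in 47.5% against 32.9%, so in the lower GC range genes of 20 or more exons were more often higher than lower.

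GC balance also varied between libraries. The median log2 level of genes in the highest GC group relative to those in the lowest was 0.06 to 0.29 in the control libraries and -0.21 to 0.073 in the knockdown libraries, so composition moved with the groups. With per-library offsets for GC content and length, 6927 genes were called higher and 8428 lower, with 13697 of the 14864 calls shared, and 5277 of the 6095 agreeing genes were shared. The part of library composition in the differences between gene groups was not tested further.

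**Figure D5:**
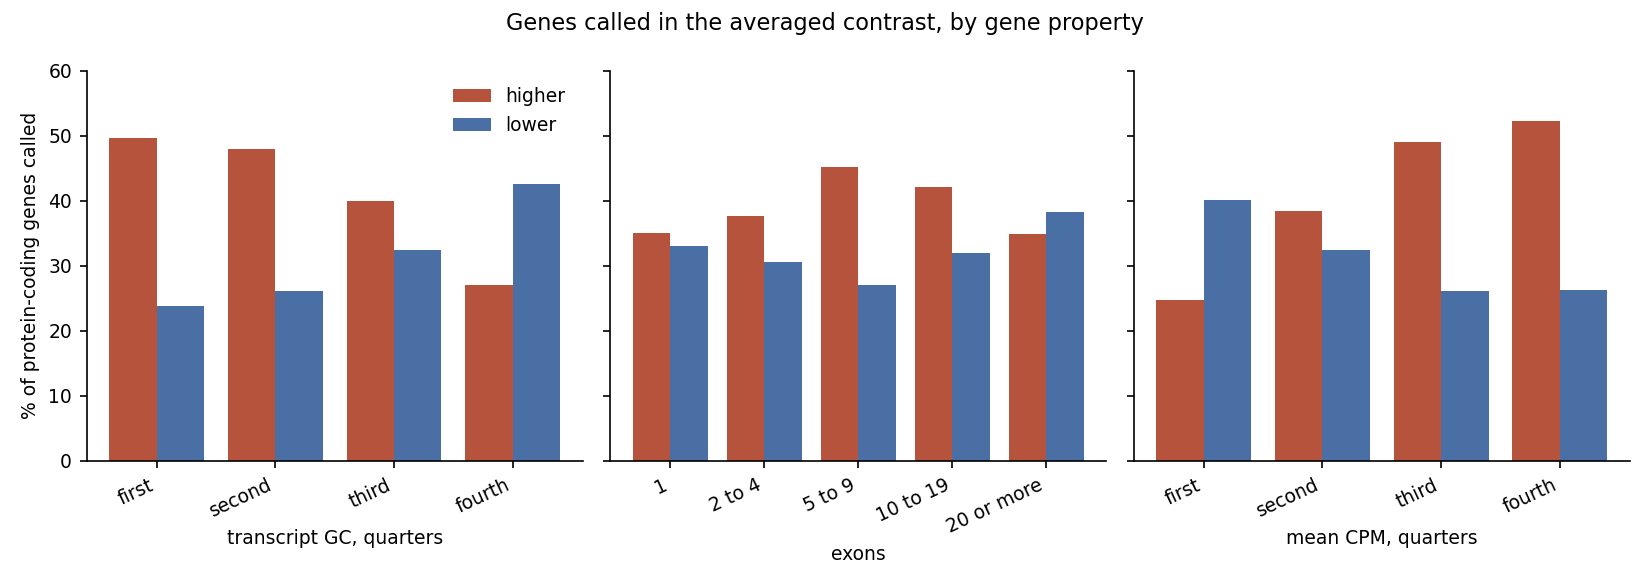
Percent of protein-coding genes of at least 1 CPM called higher (red) and lower (blue) in the average, grouped by transcript GC content, by exon number and by mean CPM. The share called higher drops from 49.7% to 27.1% from the lowest to the highest GC group, and rises from 24.7% to 52.3% from the lowest to the highest CPM group.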

How the data were processed

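RNA of 12 libraries was prepared with a stranded TruSeq mRNA kit, per the labels' protocols. The authors deposited 1 file per library of whole-number read counts per gene; HISAT2 2.0.5, SAMtools, HTSeq and GRCh38 are named in the submitters' processing notes, without their roles, and the annotation release and the strand setting are unknown (not given in the sources used here). Of 60554 gene IDs, 56996 were named through GENCODE 29 and 3558 were not. Library totals of 252505520 to 320986785 gave a median SE of 0.11 log2 units for the averaged contrast.

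Counts were fitted in edgeR 4.0.16 (R 4.3.3, limma 3.58.1; filterByExpr, TMM, robust quasi-likelihood) with 1 mean per group. The averaged contrast, each knockdown and a 2-degree F test among the knockdowns were Benjamini-Hochberg adjusted over all 29003 tested genes, at 0.05. Alternatives were DESeq2 1.42.0, other scaling, filters, offsets for GC content and length, a 2-fold minimum, each library or knockdown left out, and, added after seeing the data, the first library of each knockdown left out and another count of exons.

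Genes were named by a rule: the 3 targets; the 12 largest changes per direction among protein-coding genes called alike in all 3 knockdowns, of at least 5 CPM, with no overlap with control; the 4 per direction with the smallest range at 0.8 log2 units or more; the 4 most opposed; 3 long non-coding genes per direction; and up to 2 members per list and direction by smallest p. Genes that the rule names and that are not reported here were not replaced. Further genes and both promoter motifs were chosen after their values were seen. The contrast, the 31 lists, including markers of other cell types, and the rules were chosen with earlier results of these data known. Promoter windows came from RefSeq. On simulated data (28393 genes), changes were placed only in genes of at least 1 CPM, and no shift by GC content or library order was included. The averaged contrast recovered 94% of 67 genes changed by 0.5 log2 units and 100% of the 67 and 66 changed by 1 and 2, and called 18 unchanged genes. Changes were thus few, with as many up as down, whereas 51.2% of genes were called in the data. Recovery at lower counts, errors under shifts by GC content or library order, and errors under so broad a change were not simulated. Figures were drawn with matplotlib 3.10.9.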

Additional observations from a re-analysis of the deposited data

Results flagged for a closer look

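The response differed among the 3 knockdowns in 17141 genes by an F test that uses no control library. The distance between the highest and the lowest of the 3 single log2 fold changes is given for the genes chosen by the naming rule or named in the text for which that test called a difference. The 3 targets are left out, since each was depleted in its own knockdown, and MT-ND3, VLDLR and CACNA1B are list members not described above. Ranges of 2 log2 units or more were found for CHGA (4.39), RPS6 (3.65), SYP (2.71), CLSTN2 (2.67), NPTXR (2.64), EGR1 (2.23), NUPR1 (2.05) and AC015813.1 (2.03). Ranges between 1 and 2 belonged to CACNA1B (1.98), SLC16A3 (1.92), ETV5 (1.70), C11orf96 (1.57), FOS (1.46), GPR50 (1.40), SRPK3 (1.35), ARC (1.34), ALDH8A1 (1.33), DUSP4 (1.33), TFAP2E (1.30), ATF5 (1.25), PKD1L1 (1.17), DHRS2 (1.14), TNC (1.12), GADD45B (1.09), G0S2 (1.05), NEFM (1.04) and SLC43A2 (1.01). Between 0.6 and 1 lay FOSB (0.97), SLC2A1 (0.90), COX6A1 (0.87), DERL3 (0.84), ATF4 (0.80), ARRDC4 (0.80), ORC6 (0.77), HSD17B10 (0.76), RGS5 (0.73), STIP1 (0.72), CALR (0.72), CCND1 (0.71), EGR2 (0.70), SLC7A1 (0.69), PDIA4 (0.69), LGALS3BP (0.66), HSP90B1 (0.66), CDC20 (0.63), MRPL47 (0.62) and LSM4 (0.60). Between 0.4 and 0.6 were CYC1 (0.59), PPIL1 (0.57), MT-CYB (0.57), HSPA5 (0.57), ODC1 (0.55), LUC7L (0.54), MLXIPL (0.52), TIGAR (0.50), C7orf50 (0.46), ZCCHC12 (0.46), SQLE (0.46), TXNIP (0.44), ATF3 (0.43), DNAJA4 (0.40) and AC022150.4 (0.40). Ranges between 0.25 and 0.4 occurred for SRSF11 (0.39), ARRDC1 (0.38), FAM229A (0.37), LINC02593 (0.35), RSRC1 (0.33), GGPS1 (0.32), CLK4 (0.32), TRA2B (0.31), SARS (0.31), LINC00467 (0.30), PNN (0.29), CANX (0.29), LUC7L2 (0.29), MT-CO1 (0.29), PTBP3 (0.29), HNRNPR (0.28), VLDLR (0.26), TMEM79 (0.25) and CLK1 (0.25). The smallest called ranges, under 0.25, were those of PHGDH (0.24), RPL36A (0.24), SRPK2 (0.22), FASTKD1 (0.22), TNFRSF10B (0.22), SNHG11 (0.21), SNHG3 (0.21), KRT8 (0.21), SRSF5 (0.20), MT-ND3 (0.20), PMVK (0.19), SF3B2 (0.18), PNISR (0.18), WARS (0.17), MKI67 (0.17), SF3A1 (0.16) and RBM5 (0.14). A small range can be called where the libraries of a group lie close together.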

How the results depend on the processing

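Leaving out 1 library at a time gave 5944 to 7029 genes higher and 6820 to 8153 lower, 2362 to 3304 agreeing higher and 2610 to 3119 agreeing lower, 15687 to 17490 differing among the knockdowns, and a difference of -3.78 to -3.37 percentage points in mitochondrial share. With the 9 knockdown libraries as 1 group, 3394 genes were higher and 3789 lower, and 22 named genes lost their calls. A minimum change of 2-fold left 30 higher and 89 lower, of which 5 and 16 agreed in all 3 knockdowns. In the main fit, 173 genes that agreed higher and 594 that agreed lower had an estimated averaged change of at least 2-fold. Tested by themselves, protein-coding genes gave 5427 higher and 5298 lower, a fit with other genes and another scaling, whose median over the genes tested was 0.00039. Without the RBM17 group, 4535 genes agreed higher over the 2 remaining knockdowns, a criterion of fewer tests.

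Signs turned with a group left out: RBM17 (0.097), RPS6 (0.40) and CHGA (-0.41), and the medians of histones (0.002) and neuronal genes (-0.26), without the RBM17 group; U2SURP (0.19) and ATF4 (0.16) without the U2SURP group; CHERP (0.12), SYP (0.50), NPTXR (0.20) and NEFM (0.027) without the CHERP group. The alpha-arrestin median of 0.011 became -0.036 without a filter, -0.012 in protein-coding genes, -0.016 to 0.026 with 1 library left out (below 0 without U2SURP library 1, at -0.002, CHERP library 1, at -0.0039, or control library 2) and -0.018 without the RBM17 group. The splicing kinase median became 0.0073 with GC offsets. For these medians the cause was not tested. Of all values of named genes under the alternatives, 2722 kept direction and call, 146 lost the call, 13 gained it and 9 turned. No paired analysis was possible because the labels carry library numbers but no replicate numbers shared between groups. Genes called neither in the average nor in any knockdown had a median of 0.0844 CPM; whether depth or absence of change kept them uncalled was not tested.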
